A study of Mus musculus with 10 samples.

Results

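Dendritic cells take up antigen in a tumor and present it to T cells, and they fall into several lineages. Type 1 conventional dendritic cells depend on the transcription factors BATF3 and IRF8 and present antigen of dead cells to CD8+ T cells. Type 2 conventional dendritic cells present mainly to CD4+ T cells, plasmacytoid dendritic cells are known for type I interferon, and mature dendritic cells leave the tissue for the draining lymph node. The genes described here are 10 dendritic cell lineage genes, chosen by name as markers and regulators of these lineages: Xcr1, Clec9a, Flt3, Batf3, Irf8, Zbtb46, Cd209a, Siglech, Clec10a and Fscn1. All 10 were among the 17864 genes of the deposited table, and all 10 passed the filter on low counts that left 14816 genes for testing.

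The genes were measured by RNA-seq in whole tumors of 4T1, a mammary carcinoma cell line of the mouse, after injection of the cells into the mammary fat pad of female mice 6 to 8 weeks old. The sgCon group holds 5 tumors of 4T1 cells with Cas9 and a control guide RNA, and the sgTaz group holds 5 tumors of 4T1 cells with Cas9 and a guide RNA against Wwtr1, the gene of the Hippo pathway transducer TAZ. The guide RNAs were delivered to the tumor cells only, so every host cell of both groups, dendritic cells included, kept an unedited Wwtr1. The methods name BALB/c and SCID mice as hosts of 4T1 cells, and the labels do not say which host the sequenced tumors had or whether the lines were clones. The tumors of a group carry separate numbers in the labels and were read as separate tumors, so that p-values measure the spread between these tumors.

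A library of the sgCon group held 14753922 to 19595821 counts and a library of the sgTaz group 12185383 to 18395558. Wwtr1, the targeted gene, had 192, 181, 115, 171 and 156 CPM (TMM-normalized read counts scaled to a common library total) in sgCon tumors 1 to 5 and 86.6, 104, 110, 139 and 102 CPM in sgTaz tumors 1 to 5, which gave a log2 fold change of -0.59 (SE 0.151, edgeR adjusted p = 0.096, DESeq2 adjusted p = 0.0151). These are RNA values of tumor and host cells together, and the paper detected the knockdown in 4T1 cells as TAZ protein, by immunoblot. Genes of epithelial tumor cells, 8 in all with none at 0, summed to 2194 to 5050 CPM in sgCon and to 1621 to 3913 CPM in sgTaz tumors. The tumors differed in genes of lymphoid tissue. A list of 8 lymph node genes, of its stroma and high endothelium, summed to 144, 164, 814, 41.3 and 289 CPM in the sgCon tumors and to 4.84, 4.78, 6.86, 12.5 and 392 CPM in the sgTaz tumors. In sgTaz tumors 1 to 4, from 2 to 4 of these 8 genes were at 0, and none was at 0 in the other 6 tumors. A list of 10 B cell genes summed to 92.0 to 1099 CPM in sgCon tumors, to 15.9 to 37.7 CPM in sgTaz tumors 1 to 4 and to 252.4 CPM in sgTaz tumor 5, with at most 2 of the 10 at 0 in a tumor. A list of 10 T cell genes, none at 0 in any tumor, summed to 149 to 1051 CPM in sgCon and 110 to 303 CPM in sgTaz tumors. The paper describes SCID mice as without working adaptive immunity, and which host these tumors had was not tested. A list of 10 macrophage genes, none of them at 0 in any tumor, summed to 855 to 1949 CPM in sgCon tumors and to 1635 to 2275 CPM in sgTaz tumors.

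No difference between sgTaz and sgCon tumors was called for any of the 10 dendritic cell lineage genes. After TMM normalization and the quasi-likelihood test of edgeR over all genes tested, 0 of 10 had a Benjamini-Hochberg adjusted p below 0.05, where 0.00675% of all genes tested (1 of 14816) passed. At an unadjusted p below 0.05, 0 of 10 passed in either direction, where 21.8% of all genes tested passed. In DESeq2, 0 of 10 had an adjusted p below 0.05, where 6.75% of the genes it tested passed. The groups of 5 tumors overlapped for all 10 genes, while they did not overlap for 4.57% of all genes tested. The log2 fold changes of the 10 genes ran from -0.39 for Flt3 to 1.06 for Cd209a, with a median of 0.098 against -0.019 over all genes tested. In whole tumors, fewer cells of a lineage and less RNA per cell cannot be told apart.

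**Figure D1:**
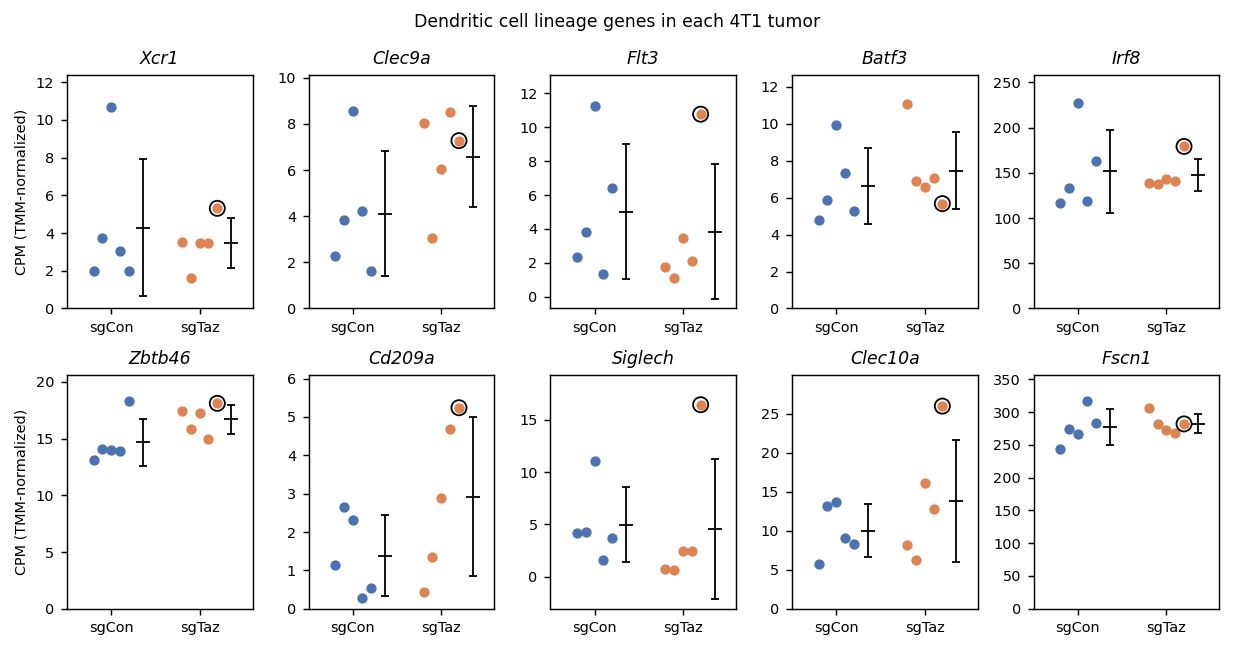
CPM of each of the 10 genes (y axis, linear, TMM-normalized) in 5 sgCon tumors (blue) and 5 sgTaz tumors (orange), tumors 1 to 5 from left to right. Bars beside the points give the mean and SD, and the ring marks sgTaz tumor 5. Groups overlap in every panel, and the ringed tumor is the highest of the 10 for Siglech at 16.4 CPM, Clec10a at 26.0 CPM and Cd209a at 5.24 CPM.

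The 10 genes differed far more in level than between groups. Per kilobase of exon, Fscn1 stood highest at a mean of 92.0 CPM per kb in sgCon tumors and 93.8 in sgTaz tumors. Irf8 followed at 21.5 and 21.0 CPM per kb. The next levels in sgCon tumors were 4.16 CPM per kb for Batf3 and 3.46 for Clec10a, 2 genes that lay closer together than their coefficients of variation of 31.1% and 33.6%. Below them came Zbtb46 at 1.72, Siglech at 1.47 and Clec9a at 1.25 CPM per kb. Xcr1 at 0.963, Cd209a at 0.875 and Flt3 at 0.814 CPM per kb were lowest and lay closer together than their coefficients of variation of 76.1% to 85.0%. Fscn1 encodes the actin-bundling protein fascin, which mature dendritic cells and many carcinoma cells make, and Irf8 is used by macrophages and B cells as well. Which cells the reads of this pair came from cannot be told apart in a whole tumor.

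Xcr1 and Clec9a are the genes that most narrowly mark type 1 conventional dendritic cells. Xcr1 encodes the receptor for the chemokine XCL1, and Clec9a encodes a receptor for actin filaments of dead cells. Xcr1 (ENSMUSG00000060509.4) is a minus-strand gene of mm10 on chromosome 9 from 123852315 to 123862029, and Clec9a (ENSMUSG00000046080.17) on the plus strand of chromosome 6 from 129408862 to 129424763. The sequences below are shown because these genes moved together from tumor to tumor. They are the RefSeq promoters on GRCm38.p6, 250 bases before and 50 bases from the start site on, 5′ to 3′ on the strand of the gene. The Xcr1 window is chr9:123861980-123862279 and the Clec9a window is chr6:129408612-129408911.
Xcr1: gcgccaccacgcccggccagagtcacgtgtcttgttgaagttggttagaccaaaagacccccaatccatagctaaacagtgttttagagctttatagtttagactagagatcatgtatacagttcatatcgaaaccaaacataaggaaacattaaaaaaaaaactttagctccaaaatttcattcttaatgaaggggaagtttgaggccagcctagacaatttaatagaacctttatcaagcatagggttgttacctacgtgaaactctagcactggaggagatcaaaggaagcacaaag
Clec9a: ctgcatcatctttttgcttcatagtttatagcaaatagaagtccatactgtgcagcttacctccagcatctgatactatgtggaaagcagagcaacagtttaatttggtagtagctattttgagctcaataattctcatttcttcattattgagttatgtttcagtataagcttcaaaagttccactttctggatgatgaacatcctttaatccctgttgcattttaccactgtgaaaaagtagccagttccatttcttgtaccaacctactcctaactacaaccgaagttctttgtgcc

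Xcr1 was measured at 1.98, 3.75, 10.7, 3.05 and 1.99 CPM in sgCon tumors and at 3.50, 1.61, 3.48, 3.48 and 5.31 CPM in sgTaz tumors. The highest tumor was sgCon tumor 3, and 4 of the 5 sgTaz tumors lay within the range of the other sgCon tumors or below it. The mean was 4.29 ± 3.64 CPM in sgCon and 3.48 ± 1.31 CPM in sgTaz tumors (SD, n = 5 each). The log2 fold change was -0.30, with a 95% interval from -1.35 to 0.74 (edgeR adjusted p = 0.741). Without sgCon tumor 3 it turned to 0.36.

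Clec9a was measured at 2.28, 3.85, 8.55, 4.22 and 1.64 CPM in sgCon tumors and at 8.02, 3.04, 6.05, 8.50 and 7.28 CPM in sgTaz tumors. Here 4 of the 5 sgTaz tumors were above 4 of the 5 sgCon tumors, and sgCon tumor 3 was above them all. Means were 4.11 ± 2.70 CPM in sgCon and 6.58 ± 2.18 CPM in sgTaz tumors (SD, n = 5 each). sgTaz tumors differed from sgCon tumors by 0.67 on the log2 scale (SE 0.417, 95% interval -0.24 to 1.59, edgeR adjusted p = 0.363), and the exact two-sided permutation test over all groupings of the tumors gave p = 0.143. With the macrophage level of each tumor as a covariate the log2 fold change was -0.21. Clec9a shares 184 exon bases with Clec1b on the same strand, which had 3 to 8 counts in every tumor. How reads of this stretch were counted, or whether they were left out, is not known.

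Across the 10 tumors, with the group means taken off, log2 CPM of Xcr1 and Clec9a had a Pearson r of 0.92 and a Spearman rho of 0.67, and r was 0.81 without the 2 tumors farthest from the median. The tumors share library depth and tissue content in both values, so this is a description. For each count of Xcr1 there were 1.15, 1.03, 0.801, 1.38 and 0.828 counts of Clec9a in the sgCon tumors. In the sgTaz tumors there were 2.29, 1.88, 1.74, 2.44 and 1.37 counts of Clec9a for each count of Xcr1. The sgTaz tumors thus had more Clec9a relative to Xcr1 except that sgTaz tumor 5 lay just under sgCon tumor 4. The ratio was looked at after the values of both genes were seen and was not tested, and it rests on 24 to 137 counts of Clec9a and 25 to 171 counts of Xcr1 a tumor.

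**Figure D2:**
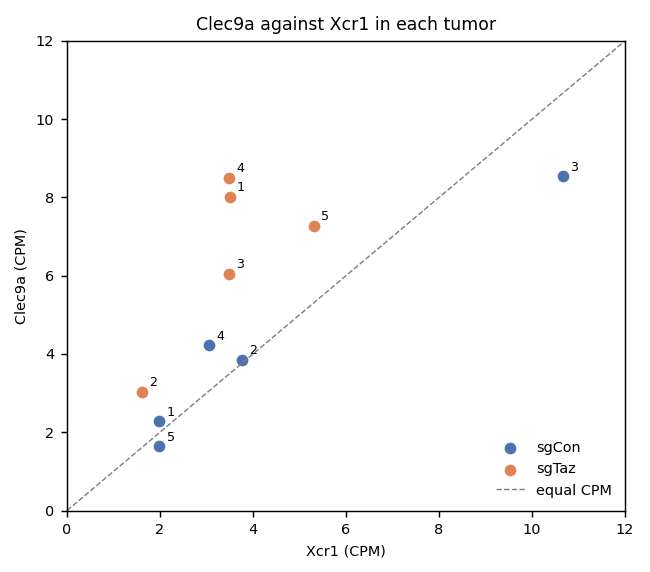
Clec9a (y axis, CPM) against Xcr1 (x axis, CPM) in each tumor, sgCon in blue and sgTaz in orange, numbered 1 to 5, both axes linear from 0. On the dashed line the CPM are equal. All 5 sgTaz tumors lie above it, with 1.37 to 2.44 counts of Clec9a per count of Xcr1, while the sgCon tumors lie on both sides of it, from 0.801 to 1.38.

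Batf3 and Irf8 encode the transcription factors on which type 1 conventional dendritic cells depend. Batf3 was measured at 4.80, 5.86, 9.92, 7.33 and 5.27 CPM in sgCon tumors and at 11.1, 6.91, 6.59, 7.04 and 5.68 CPM in sgTaz tumors. The highest value was that of sgTaz tumor 1, and the other 4 sgTaz tumors fell inside the sgCon range. For Batf3 the log2 fold change was 0.17, with a 95% interval from -0.36 to 0.70 (edgeR adjusted p = 0.711), and it was -0.017 without sgTaz tumor 1. Irf8 was measured at 117, 133, 227, 119 and 163 CPM in sgCon tumors and at 139, 137, 143, 141 and 179 CPM in sgTaz tumors. All 5 sgTaz tumors lay between the lowest and the highest sgCon tumor. Its log2 fold change of -0.04 had a 95% interval from -0.42 to 0.34 (edgeR adjusted p = 0.920), the sign turning in 6 of 19 other settings.

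Flt3 encodes the receptor for FLT3 ligand, the growth factor on which dendritic cells depend. It lies on the minus strand of chromosome 5 from 147330741 to 147400489. Siglech encodes a receptor of the Siglec family on plasmacytoid dendritic cells and lies on the plus strand of chromosome 7 from 55768178 to 55778925. The promoter windows of these genes, chr5:147400440-147400739 for Flt3 and chr7:55767934-55768233 for Siglech, are shown for the same reason as the pair above. Capitals mark CACCTG, an E-box of the kind that E2-2 can bind, found in the Siglech window at -20 from the start site. This motif, searched on both strands, is in 20.2% of all 32851 RefSeq promoter windows of the same length.
Flt3: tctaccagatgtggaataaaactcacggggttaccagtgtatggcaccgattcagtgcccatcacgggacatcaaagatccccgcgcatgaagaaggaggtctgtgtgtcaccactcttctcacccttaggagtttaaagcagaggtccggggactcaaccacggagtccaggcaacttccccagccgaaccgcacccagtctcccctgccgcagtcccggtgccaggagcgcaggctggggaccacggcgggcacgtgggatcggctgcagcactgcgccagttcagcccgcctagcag
Siglech: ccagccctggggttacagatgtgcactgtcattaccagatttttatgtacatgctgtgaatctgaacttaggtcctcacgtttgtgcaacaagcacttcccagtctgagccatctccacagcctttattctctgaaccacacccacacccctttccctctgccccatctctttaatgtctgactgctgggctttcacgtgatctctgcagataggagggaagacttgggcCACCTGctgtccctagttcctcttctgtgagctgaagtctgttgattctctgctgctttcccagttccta

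Flt3 was measured at 2.34, 3.80, 11.2, 1.33 and 6.44 CPM in sgCon tumors and at 1.78, 1.10, 3.48, 2.10 and 10.8 CPM in sgTaz tumors. The 2 highest tumors were sgCon tumor 3 and sgTaz tumor 5, which were also the 2 highest for the lymph node stroma list. Within sgCon tumors the order of Flt3 was the order of the B cell list, with sgCon tumor 4 lowest and sgCon tumor 3 highest. Its log2 fold change was -0.39 (SE 0.671, 95% interval -1.86 to 1.08, edgeR adjusted p = 0.766). Without sgTaz tumor 5 it was -1.23 and without sgCon tumor 3 it was 0.15.

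Siglech was measured at 4.20, 4.30, 11.0, 1.61 and 3.70 CPM in sgCon tumors. In sgTaz tumors 1 to 4 it was at 0.764, 0.646, 2.46 and 2.43 CPM, and in sgTaz tumor 5 at 16.4 CPM. The range of sgTaz tumors thus enclosed that of the sgCon tumors, from the lowest 0.646 CPM to the highest 16.4 CPM. Means were 4.97 ± 3.56 CPM in sgCon and 4.55 ± 6.71 CPM in sgTaz tumors (SD, n = 5 each). The fitted log2 difference was -0.13 (SE 0.814, 95% interval -1.92 to 1.65, edgeR adjusted p = 0.940). Without sgTaz tumor 5 it was -1.65, with an unadjusted p of 0.0168 and an adjusted p of 0.156 in edgeR. In that fit 1 of the 10 genes, Siglech, passed at an unadjusted p below 0.05, where 20.2% of the genes tested passed, and 0 of 10 after adjustment, where 1.15% passed.

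Flt3 and Siglech also followed each other across the 10 tumors, with r of 0.90, rho of 0.79 and r of 0.71 without the 2 farthest tumors, again as a description. Flt3 and Irf8 had r of 0.85, rho of 0.87 and r of 0.74 without the 2 farthest tumors. In the map of all tumors, sgCon tumor 3 and sgTaz tumor 5 are the 2 highest for Flt3, Siglech, Irf8 and the lymph node stroma list. For the B cell list sgTaz tumor 5, at 252.4 CPM, is the highest of its group only and lies inside the sgCon range.

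**Figure D3:**
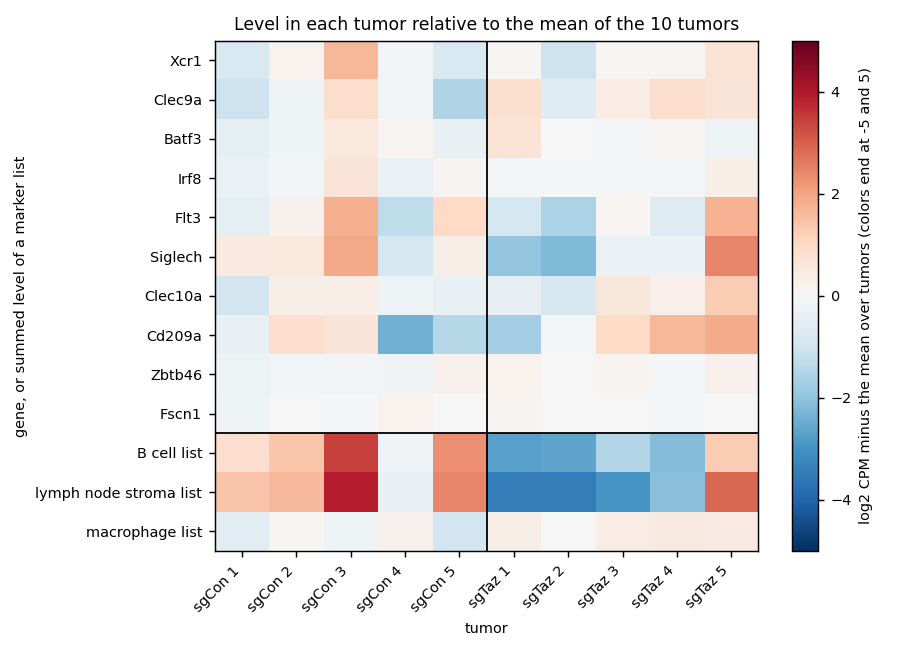
Log2 CPM of the 10 genes and of the summed B cell, lymph node stroma and macrophage lists (rows) in each tumor (columns), as the difference from the mean over the 10 tumors, red above and blue below. The vertical line parts the sgCon from the sgTaz tumors. The lymph node stroma list runs from 4.78 CPM in sgTaz tumor 2 to 814 CPM in sgCon tumor 3, and Flt3 and Siglech are high in sgCon tumor 3 and sgTaz tumor 5, as that list is.

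Cd209a, Clec10a and Zbtb46 mark type 2 conventional, monocyte-derived or all conventional dendritic cells. Cd209a encodes a C-type lectin of monocyte-derived dendritic cells and lies on the minus strand of chromosome 8 from 3743397 to 3748984. Its promoter window, chr8:3748935-3749234, is shown because the fold change of Cd209a was the highest of the 10. Capitals mark the reverse complement of a match to GGAANNGAAA, an element that ETS factors and IRF proteins can bind together, at -9 from the start site. Of all 32851 windows, 2.72% hold it on either strand.
Cd209a: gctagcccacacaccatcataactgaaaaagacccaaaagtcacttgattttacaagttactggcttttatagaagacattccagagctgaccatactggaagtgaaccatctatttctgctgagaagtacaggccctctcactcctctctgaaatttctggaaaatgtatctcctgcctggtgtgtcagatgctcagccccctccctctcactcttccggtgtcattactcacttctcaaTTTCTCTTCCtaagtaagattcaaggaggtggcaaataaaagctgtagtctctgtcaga

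Cd209a was measured at 1.14, 2.65, 2.31, 0.278 and 0.548 CPM in sgCon tumors and at 0.446, 1.36, 2.89, 4.69 and 5.24 CPM in sgTaz tumors. The 3 highest tumors were sgTaz tumors 5, 4 and 3, and the 2 lowest sgTaz tumors fell inside the sgCon range. Means were 1.39 ± 1.05 CPM in sgCon and 2.93 ± 2.07 CPM in sgTaz tumors (SD, n = 5 each). A log2 fold change of 1.06 was fitted (SE 0.675, 95% interval -0.42 to 2.53, edgeR adjusted p = 0.378), and the exact permutation test gave p = 0.270. These values rest on 5 to 72 counts a tumor. The family of Cd209 genes is similar in sequence, so that the assignment of these reads is uncertain.

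Clec10a encodes a galactose-binding lectin found on type 2 conventional dendritic cells and macrophages. It was measured at 5.76, 13.2, 13.7, 9.10 and 8.35 CPM in sgCon tumors and at 8.15, 6.20, 16.1, 12.8 and 26.0 CPM in sgTaz tumors. The 2 highest tumors were sgTaz tumors 5 and 3, while sgTaz tumor 2 was below 4 of the sgCon tumors. The log2 fold change was 0.46 (SE 0.369, 95% interval -0.35 to 1.27, edgeR adjusted p = 0.482). It was 0.11 without sgTaz tumor 5 and -0.13 with the macrophage level as a covariate. Clec10a is the near copy of Mgl2, so that the reads of this pair are uncertain in their assignment.

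Zbtb46 encodes a transcription factor of conventional dendritic cells and of endothelium. It was measured at 13.1, 14.1, 14.0, 13.9 and 18.3 CPM in sgCon tumors and at 17.4, 15.8, 17.3, 15.0 and 18.1 CPM in sgTaz tumors. All 5 sgTaz tumors were above 4 of the 5 sgCon tumors, and sgCon tumor 5 was above them all. The log2 fold change was 0.19 (SE 0.115, 95% interval -0.06 to 0.44, edgeR adjusted p = 0.356), and the exact permutation test gave p = 0.0794, where 0.00794 is the smallest that this test can give. A list of 8 genes of blood endothelium summed to 466 to 662 CPM in sgCon and 390 to 744 CPM in sgTaz tumors, and their part in the level of Zbtb46 was not tested. Fscn1 was measured at 243, 275, 267, 318 and 284 CPM in sgCon tumors and at 306, 282, 273, 268 and 282 CPM in sgTaz tumors. Of the 10 genes it varied least between tumors, with the highest tumor 1.3 times the lowest, and its log2 fold change was 0.03 with a 95% interval from -0.14 to 0.20 (edgeR adjusted p = 0.866).

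For several of these genes the group difference depended on whether the lymph node stroma level entered the fit. That level, the mean log2 CPM of 6 genes of the list, was entered as a covariate in the same edgeR test. In that fit 11.6% of all genes tested passed at an unadjusted p below 0.05, 817 of 14816 higher and 896 lower. Of the 10 genes 5 passed, all higher in sgTaz tumors. They were Siglech with a log2 fold change of 1.50, Clec10a with 1.22, Flt3 with 1.46, Cd209a with 2.18 and Irf8 with 0.40, their unadjusted p-values in edgeR running from 0.0016 for Siglech to 0.0446 for Irf8. None passed after adjustment over all genes, with adjusted p-values of these genes from 0.356 to 0.419. Clec9a stood at 1.13, Xcr1 at 0.72, Zbtb46 at 0.30, Batf3 at 0.04 and Fscn1 at -0.02, and the median of the 10 was 0.929 against -0.005 over all genes tested. The log2 fold change thus turned from below 0 to above 0 for Xcr1, Flt3, Irf8 and Siglech. Of the sgTaz tumors only tumor 5 lay inside the sgCon range of the list, so that group and list level were largely confounded in the other 9 tumors. The difference with this covariate was among the earlier results of these data known when the 10 genes were chosen.

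**Figure D4:**
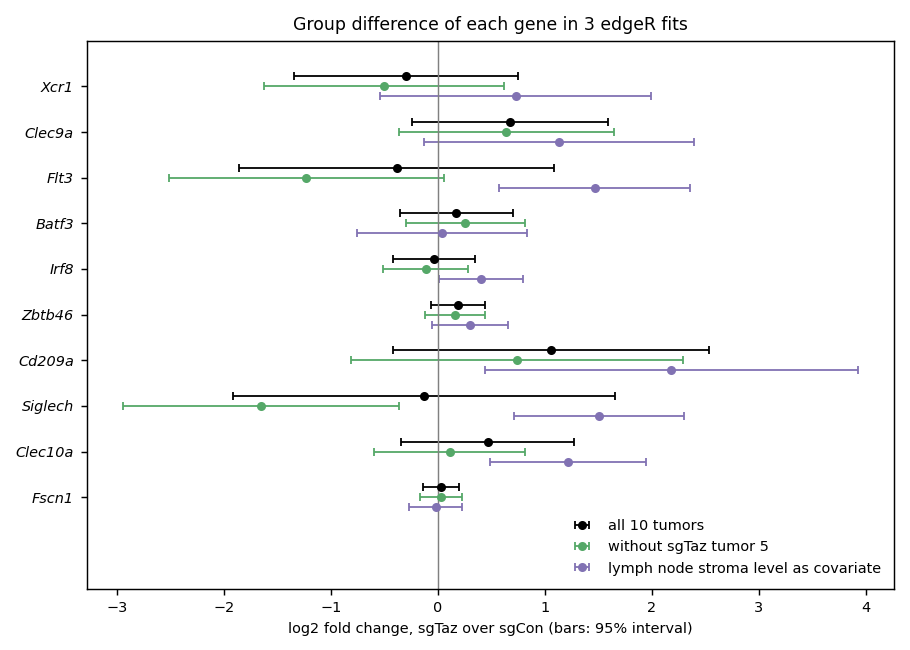
Log2 fold change of sgTaz over sgCon tumors (x axis) with its 95% interval (bars) for each of the 10 genes (y axis) in 3 edgeR fits: all 10 tumors, all 10 tumors with the lymph node stroma level as covariate, and without sgTaz tumor 5. Intervals of all 10 genes cross 0 with all tumors, and Siglech moves from -0.13 to 1.50 with the covariate and to -1.65 without sgTaz tumor 5.

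Other genes of the same lineages were read from hand-written lists. Of 12 other genes of type 1 conventional dendritic cells, all tested, 6 had a log2 fold change above 0 and 6 below, 0 had an unadjusted p below 0.05, and the median was 0.012. Of 11 tested genes of type 2 conventional and monocyte-derived dendritic cells, 4 were higher and 2 lower in sgTaz tumors at an unadjusted p below 0.05, with a median of 0.33. Of 11 tested genes of plasmacytoid dendritic cells, 0 were higher and 3 lower, with a median of -0.29. Of 12 genes of mature dendritic cells, 0 were higher and 2 lower, with a median of -0.28. Of 11 growth factor, chemokine and receptor genes, 2 were higher and 1 lower, with a median of -0.12. Over these lists 14 of 57 tested genes had an unadjusted p below 0.05, beside 21.8% of all genes, and 0 of 57 passed after adjustment in edgeR. DESeq2 called 4 of 58 at an adjusted p below 0.05, all higher, beside 6.75% of all genes. In limma-voom with sample quality weights 9 of 57 passed, 5 higher and 4 lower, beside 10.4% of all genes and 0 of the 10 lineage genes. With the lymph node stroma level as a covariate in edgeR, 13 of 57 had an unadjusted p below 0.05. All 13 were higher. In that fit 11.6% of all genes passed in either direction, 817 of 14816 higher and 896 lower. The 13 held 1 of 12 type 1, 5 of 11 type 2 and 0 of 11 plasmacytoid genes. The others were 3 of 12 mature genes and 4 of 11 growth factor, chemokine and receptor genes.

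The 4 genes that DESeq2 called were Mgl2, Zeb2 and Itgax of the type 2 list and Cxcl9 of the chemokine and receptor list. Mgl2, a galactose-binding lectin, was at 30.7, 34.2, 26.7, 35.5 and 19.8 CPM in sgCon and at 66.1, 35.3, 80.0, 73.4 and 81.7 CPM in sgTaz tumors. Only sgTaz tumor 2 lay within the sgCon range, and the log2 fold change was 1.19 (SE 0.224, edgeR adjusted p = 0.0824, DESeq2 adjusted p = 0.000119). Itgax, the gene of the integrin CD11c, was at 57.9, 64.1, 69.1, 60.1 and 37.4 CPM in sgCon and at 98.7, 69.7, 89.8, 97.0 and 86.9 CPM in sgTaz tumors. Its groups did not overlap, and the log2 fold change was 0.61 (edgeR adjusted p = 0.096, DESeq2 adjusted p = 0.0101). Zeb2, a transcription factor of the myeloid lineages, differed by 0.63 on the log2 scale, and Cxcl9, a chemokine that draws T cells, by 0.60. DESeq2 adjusted p-values of this pair were 0.00209 and 0.032, and edgeR adjusted p-values 0.0874 and 0.117. Ccr2, the receptor of monocytes for CCL2, differed by 0.64 (edgeR adjusted p = 0.142) and Sirpa, a receptor for CD47, by 0.33 (edgeR adjusted p = 0.190).

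Beside these 6 genes, 10 of 10 genes of the macrophage list had a log2 fold change above 0, 6 of them with an unadjusted p below 0.05 in edgeR, and the median was 0.48. Of all 14816 genes tested, 6961 were above 0 and 1461 were higher at this threshold. After adjustment 0 of the 10 macrophage genes passed in edgeR and 4 in DESeq2. With the macrophage level as a covariate, the log2 fold change was 0.61 for Mgl2, 0.33 for Zeb2, 0.24 for Itgax, 0.13 for Cxcl9, 0.09 for Ccr2 and 0.07 for Sirpa. Which cells these genes were read from was not tested. In the same fit, 3 of the 10 dendritic cell lineage genes were above 0 and 7 below, with 0 at an unadjusted p below 0.05. Of all 14816 genes tested in that fit, 496 were higher and 529 lower at this threshold. Of the sgTaz tumors only tumor 2, at 1635 CPM, lay inside the sgCon range of the macrophage list. Group and macrophage level were thus largely confounded.

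The genes that were lower at an unadjusted p below 0.05 were Spib, Pacsin1 and Irf7 of the plasmacytoid list, Ccr7 and Socs2 of the mature list, Irf4 and Cd7 of the type 2 list and Flt3l, the gene of the ligand of FLT3. Spib, a transcription factor of B cells and plasmacytoid dendritic cells, was at 11.7, 18.1, 78.8, 6.27 and 35.8 CPM in sgCon and at 0.827, 0.517, 2.79, 1.78 and 21.0 CPM in sgTaz tumors. In 4 of 5 sgTaz tumors it was below every sgCon tumor, sgTaz tumor 5 being the exception, and the log2 fold change was -2.50 (SE 0.971, edgeR adjusted p = 0.176). Ccr7, the receptor that guides mature dendritic cells and naive lymphocytes to lymph nodes, was at 23.5, 25.8, 119, 9.99 and 45.7 CPM in sgCon and at 8.59, 4.97, 10.7, 7.77 and 34.9 CPM in sgTaz tumors. The highest tumor was sgCon tumor 3, and sgTaz tumor 5 lay above 3 of the sgCon tumors. For Ccr7 the log2 fold change was -1.75 (SE 0.675, edgeR adjusted p = 0.175). Log2 fold changes were -2.03 for Pacsin1, -1.40 for Cd7, -1.32 for Irf4, -0.77 for Flt3l, -0.38 for Socs2 and -0.29 for Irf7, with edgeR adjusted p-values from 0.128 to 0.226. With the lymph node stroma level as a covariate, they were -0.27 for Spib, 0.19 for Pacsin1, 0.28 for Ccr7, 0.32 for Cd7, 0.31 for Irf4, -0.08 for Flt3l, -0.12 for Socs2 and -0.30 for Irf7. Of the 10 B cell genes, 9 were lower at an unadjusted p below 0.05, with a median of -2.92 on the log2 scale. Of 10 T cell genes, none at 0 in any tumor, 9 were lower by the same test, with a median of -1.83, and they summed to 149 to 1051 CPM in sgCon and to 110 to 303 CPM in sgTaz tumors. By the same rule 1765 of all 14816 genes tested were lower. After adjustment 0 genes of either list passed in edgeR, and 1 B cell gene and 4 T cell genes passed in DESeq2. The part of B and T cells in the values of the 8 genes named above as lower was not tested. Without sgTaz tumor 5, 3 of 57 genes were called in edgeR, all lower, beside 1.15% of all genes tested in that fit. They were Spib at -4.32 on the log2 scale (edgeR adjusted p = 0.0429), Ccl19 at -7.17 (adjusted p = 0.041) and Ccl21a at -5.41 (adjusted p = 0.0429). Ccl19 and Ccl21a, chemokines that bind CCR7, are also on the lymph node stroma list and are named here after their values were seen. Flt3l shares 856 exon bases with another annotated gene on its strand, so that its counts are uncertain with any strand setting. Zeb2, Cd7 and Irf7 share exon bases with genes on the opposite strand, and their counts are uncertain if the counting did not use strand.

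**Figure D5:**
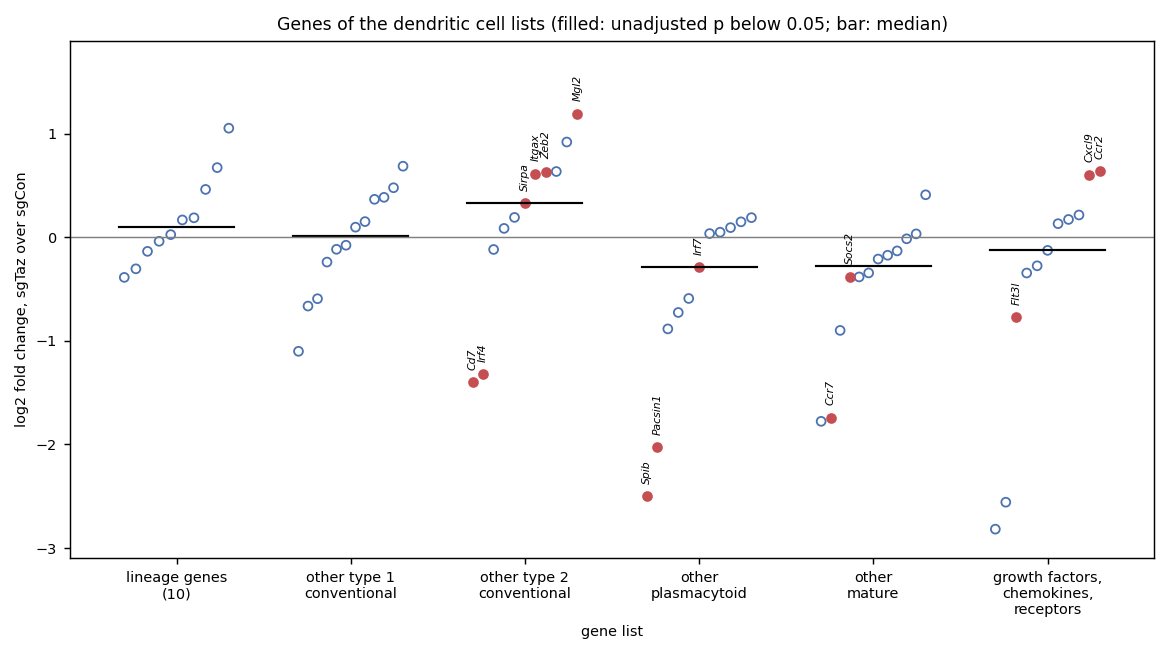
Log2 fold change of sgTaz over sgCon tumors (y axis) for each tested gene of the 10 lineage genes and of 5 other dendritic cell lists (x axis). Filled points have an unadjusted edgeR p below 0.05 and carry the gene name, and bars give the median of each list. No point of the 10 lineage genes or of the type 1 list is filled, and filled points lie above 0 in the type 2 and chemokine lists and below 0 in all lists but the type 1 list and the lineage genes.

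The genes most alike each of the 10 in their pattern over tumors were read from log2 CPM with the group means taken off, over 10 tumors, among all 14816 genes tested. For Xcr1 they were Tnfaip8l2, Cd48 and Kcnab2, with r from 0.970 to 0.984. For Clec9a they were Wars, Gm2a and Cyp27a1, with r from 0.953 to 0.963. Flt3 was most like H2-Ob, Serpinb1a and Cxcr5, with r from 0.986 to 0.991 and with r from 0.972 to 0.984 without the 2 farthest tumors. Irf8 was most like Mical1, Man2a2 and Ccdc69, with r from 0.983 to 0.992. Siglech was most like Gm15675, Adam23 and Arhgef10, with r from 0.967 to 0.978. Clec10a was most like Klrg1, Acsl1 and Rnf144b, with r from 0.938 to 0.948. Cd209a was most like Vps8, Mcemp1 and Ccdc50, with r from 0.943 to 0.958. For Batf3 they were Mrpl57, Atp5e and Rdm1, for Zbtb46 Cabp1, Pelp1 and Sap25, and for Fscn1 Ndufc2, Nme1 and Acaa1a. Lists of this kind pick the highest of 14816 correlations, and all values share the depth and the tissue content of the 10 libraries.

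Promoter windows were held for 9 of the 10 genes, in 10 windows. The AP-1 motif TGANTCA, which BATF3 can bind with its partners, was found in the window of Zbtb46 alone, at -61, and is in 7.81% of all windows. That window, chr2:181424339-181424638, lies inside the annotated gene, which is on the minus strand from 181387762 to 181459426. Its start site is thus not the outermost start of Zbtb46. CACCTG or its reverse complement was also found in the same window of Zbtb46, at -238, and of Irf8, at -205 in 1 of its 2 windows. This Irf8 window, chr8:120738389-120738688, also lies inside the annotated gene, which is on the plus strand from 120736358 to 120756694. The E-box CAGCTG, present in 16.3% of all windows, was found in none of the 10. A match here is a description of the letters and not of binding.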

How the data were processed

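RNA of 10 whole 4T1 tumors (5 sgCon, 5 sgTaz) was sequenced by the authors, who used STAR with its 2-pass algorithm against mm10 with GENCODE annotation and obtained gene counts with featureCounts of Subread. The deposited values are these read counts of the authors, whole numbers without normalization for 17864 genes. Tool versions and the strand setting of the counting are not given in the sources used here. Of the table, 5 further columns were not used here.

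The counts were tested with edgeR 4.0.16 under R 4.3.3 (TMM, filterByExpr by group, glmQLFit, glmQLFTest, Benjamini-Hochberg over 14816 genes, threshold 0.05), and in Python 3.11.15 for sequences and figures. CPM are TMM-normalized, and log2 CPM has a prior count of 2. Total counts of 12185383 to 19595821 make 10 counts worth 0.501 to 0.809 CPM; this precision covers counting error only. Exon lengths, positions and names come from GENCODE M21, which named 17860 genes, and promoter windows from RefSeq (GRCm38.p6). The paper names another GENCODE release for its mapping and counting. Single genes were also compared with exact two-sided permutation tests of log2 CPM.

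The members and lists were chosen with earlier results of these data known, and the difference with the lymph node stroma level as covariate was among those results. Named in the text are all 10 genes, genes of the other dendritic cell lists with an unadjusted p below 0.05 (at most 4 a list, by smallest p), the 3 genes most correlated with each of the 10, and Wwtr1. Irf4, Cd7, Ccl19 and Ccl21a are named beyond this rule, chosen after their values were seen. A gene of the other lists is not reported here. Alternatives were DESeq2 1.42.0, limma-voom (limma 3.58.1) with sample quality weights, RLE normalization, no filter, at least 10 counts in every tumor, a replicate block, the lymph node stroma or macrophage level as covariate, each tumor left out, and the difference of medians over tumors. Scripts were tested on simulated data. No 2 tumors of a group had counts within sampling noise.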

Additional observations from a re-analysis of the deposited data

Results flagged for a closer look

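Of 20 groups of 5 tumors (10 genes in 2 groups), 2 held a tumor far from the other 4 by Dixon's criterion at 95%, where chance gives about 1 in 20. Irf8 in sgTaz tumor 5 had a log2 CPM of 7.486, while the other 4 sgTaz tumors had 7.102 to 7.160. Zbtb46 in sgCon tumor 5 had a log2 CPM of 4.202, while the other 4 sgCon tumors had 3.724 to 3.827.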

How the results depend on the processing

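In every alternative, 0 of the 10 genes had an adjusted p below 0.05, the lowest being 0.056 for Clec9a in limma-voom. Over all genes, limma-voom called 1546, DESeq2 1085 and the fit without sgTaz tumor 5 172. No gene at all was called with no filter, with the replicate block or with either covariate, so 0 of 10 was the only outcome open there. At an unadjusted p below 0.05, limma-voom gave 1 gene higher in sgTaz tumors, beside 2073 of all 14816 genes. The lymph node stroma covariate gave 5 higher, beside 817 of 14816. Leaving out single tumors gave 0 to 1 higher (1 without sgCon tumor 3, sgCon tumor 5 or sgTaz tumor 1). It gave 0 to 1 lower (1 without sgTaz tumor 5, beside 1740 of all 14974 genes). For the other tumors left out, the number over all genes at this threshold was not taken. Zbtb46 and Cd209a kept their sign throughout, Cd209a having no value with at least 10 counts in every tumor.

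Signs turned for the other 8 genes, in log2 fold change. With the lymph node stroma covariate Xcr1 was at 0.72, Flt3 at 1.46, Irf8 at 0.40, Siglech at 1.50 and Fscn1 at -0.021. With the macrophage covariate Clec9a was at -0.21, Batf3 at -0.0024, Irf8 at 0.070, Clec10a at -0.13 and Fscn1 at -0.032. In limma-voom Xcr1 was at 0.20 and Irf8 at 0.068, and by medians over tumors at 0.19 and 0.087. Single tumors left out gave ranges of -0.50 to 0.36 for Xcr1, -1.23 to 0.15 for Flt3, -0.017 to 0.36 for Batf3, -0.12 to 0.16 for Irf8, -1.65 to 0.39 for Siglech and -0.016 to 0.082 for Fscn1. The cause was not tested.

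Same-numbered tumors did not deviate together (correlations of -0.150, -0.243, -0.049, 0.093 and 0.221), so the numbers were not taken as pairs. With a replicate block 0 of 10 genes were called, Irf8 turned to 0.0027 and Siglech moved from -0.13 to -0.94 (edgeR adjusted p = 0.577). Siglech, Flt3 and Cd209a differed more than 10-fold between the lowest and the highest tumor.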
